A study of Mus musculus with 12 samples.

Results

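The sarcomere of heart muscle is bounded by Z-discs, where the thin filaments of neighbouring sarcomeres are crosslinked, and is centred on the M-band, where the thick filaments are held in register. Titin spans from Z-disc to M-band and sets passive stiffness, while the intermediate filament protein desmin links Z-discs to each other and to the membrane, mitochondria and nucleus. The expression of 9 genes of this scaffold was followed here: Ttn (titin), 6 Z-disc genes (Actn2, Nebl, Ldb3, Myoz2, Myot and Flnc) and 2 M-band genes (Myom1 and Myom2). They were taken by gene symbol, 1 row each, from the 21493 genes counted in every library, and all 9 passed the filter on low counts that left 13158 genes for testing.

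Adult cardiomyocytes were freed from the heart by enzymatic perfusion and harvested at once, and their poly-A RNA was sequenced. Des+/+ mice have an intact desmin gene and Des-/- mice lack it, and mice of each genotype either swam (swim) or did not (non-swim), which gave 4 groups of 3 libraries, all from mice aged 3 months. Each library pooled the cells of several animals, so the replicates are pools and not single mice. The mouse lines of both genotypes are described on the 129SV background with an αMHC-GFP transgene, a green fluorescent protein that the Myh6 promoter drives in cardiomyocytes. The desmin deletion is not restricted to the heart.

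Reads assigned to genes ran from 4320819 to 12072443 per library and were fewest in the Des-/- swim group, where no library exceeded 6521963. Des itself, the gene that separates the genotypes, stood at 973 to 3647 CPM (reads per library size in units of 1e6 reads, with sizes adjusted by the trimmed mean of M-values, TMM) in the 6 Des+/+ libraries and at 50.3 to 101 CPM in the 6 Des-/- libraries, so that every library matched its label. Defining markers of the labelled cell type were found in every library, at unequal levels. The summed level of 12 cardiomyocyte markers, which include no member, was 82415 to 122350 CPM in Des+/+ non-swim, 40965 to 65896 CPM in Des+/+ swim, 8787 to 35729 CPM in Des-/- non-swim and 21451 to 34039 CPM in Des-/- swim. Des-/- non-swim replicate 3 stood apart from the rest, with the lowest cardiomyocyte sum and, at 40662 CPM, the highest sum of 10 fibroblast markers, against 2464 to 4041 CPM in the Des+/+ libraries. Calls of members that change without this library, or without replicate 2, the opposite extreme of its group, are given with and without it. For the lists of other genes this is done in part, and calls of cell type markers are given with all libraries only.

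Ttn lies on the minus strand of chromosome 2 (GRCm38, bases 76703980 to 76982547), with 116825 bases of exon in 345 separate blocks. Of the Z-disc genes, Actn2 lies at chr13:12269426-12340760, Nebl at chr2:17343909-17731464, Ldb3 at chr14:34526603-34588682 and Myoz2 at chr3:123006206-123035015, all on the minus strand, and Flnc at chr6:29433256-29461883 on the plus strand. Of the M-band genes, Myom1 lies at chr17:71002633-71126856 and Myom2 at chr8:15057653-15133541, both on the plus strand. The exon lengths of the members other than Ttn run from 2209 bases (Myot) to 15235 bases (Nebl). No member shares exon bases with another gene of the same strand. On the opposite strand, Ttn overlaps an antisense gene by 453 bases and Myom1 overlaps Myl12a by 207 bases. The labels name a library kit that does not mark strand, so reads in those bases are uncertain.

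MEF2 proteins and the serum response factor are transcription factors known to drive striated muscle genes, MEF2 through the MEF2 site and serum response factor through the CArG box. The 250 bases before the start site and 50 bases after it were searched on both strands in the RefSeq promoter table (GRCm38.p6), which holds 12 windows for 7 members, with Ldb3 and Flnc each having 2 windows that overlap. A MEF2 site was present in Ttn and Myoz2, and in 3.187% of all 32851 promoters. A CArG box was present in Ldb3, Myom1 and 1 of the 4 Nebl windows, and in 1.629% of all promoters. The M-CAT letters CATTCC, which TEAD factors bind, were present in Ttn, Flnc and another Nebl window, and in 14.66% of all promoters. None of these was present in the Actn2 window. The 4 sequences below are shown because they carry the muscle-type motifs of a member in each layer of the sarcomere. They are the 250 bases before the start site, 5′ to 3′ in the direction of the gene, and the capitals mark the MEF2 site in the first pair and the CArG box in the second pair. They are a description of letters and say nothing of whether a factor was bound.
Ttn, minus strand, chr2:76982548-76982797: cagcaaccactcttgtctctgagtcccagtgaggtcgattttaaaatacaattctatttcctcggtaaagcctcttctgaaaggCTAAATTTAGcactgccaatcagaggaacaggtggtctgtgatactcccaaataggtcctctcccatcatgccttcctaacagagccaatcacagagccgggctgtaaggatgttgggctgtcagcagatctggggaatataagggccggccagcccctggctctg
Myoz2, minus strand, chr3:123034988-123035237: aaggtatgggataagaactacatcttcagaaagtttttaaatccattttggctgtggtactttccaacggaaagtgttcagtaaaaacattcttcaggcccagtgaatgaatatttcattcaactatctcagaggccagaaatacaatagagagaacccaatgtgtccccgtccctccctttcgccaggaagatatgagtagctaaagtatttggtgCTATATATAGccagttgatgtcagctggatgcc
Ldb3, minus strand, chr14:34588682-34588931: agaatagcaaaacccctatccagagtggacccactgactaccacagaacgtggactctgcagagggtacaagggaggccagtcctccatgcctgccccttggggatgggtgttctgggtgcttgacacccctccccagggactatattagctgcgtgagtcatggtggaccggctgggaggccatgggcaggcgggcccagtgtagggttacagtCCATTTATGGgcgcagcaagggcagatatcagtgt
Myom1, plus strand, chr17:71019307-71019556: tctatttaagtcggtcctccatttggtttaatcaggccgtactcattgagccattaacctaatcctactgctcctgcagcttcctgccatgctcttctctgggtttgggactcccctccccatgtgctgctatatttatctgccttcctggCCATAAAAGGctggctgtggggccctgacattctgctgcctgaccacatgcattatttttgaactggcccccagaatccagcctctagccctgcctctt
Counted from the start site, the MEF2 site of Ttn lies at bases -166 to -157 and that of Myoz2 at -33 to -24, and the CArG box of Ldb3 lies at -35 to -26 and that of Myom1 at -99 to -90. The Myom1 window belongs to a start site downstream of the first base of its annotated gene, 71002633.

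Levels were first compared between members per kilobase of exon, a scale that allows for the length of a gene. The length joined the exons of all annotated transcripts (25 for Ttn and 13 for Nebl). It can exceed that of the transcripts expressed here, which would set such a gene lower in the order. In Des+/+ non-swim, Actn2, the muscle α-actinin that crosslinks thin filaments in the Z-disc, was the most abundant member at 594 ± 249 CPM per kb (SD, n = 3). Myoz2, the cardiac calsarcin that tethers calcineurin to the Z-disc, followed at 217 ± 81.8 CPM per kb (SD, n = 3). Ldb3, also known as Cypher or ZASP, was at 144 ± 39.9 CPM per kb, Myom1 at 132 ± 65.7 CPM per kb and Myom2 at 127 ± 44.5 CPM per kb (SD, n = 3 each), and the libraries of these neighbours overlapped. Flnc was at 46.5 ± 6.17 CPM per kb, Myot at 26.6 ± 17.6 CPM per kb, Ttn at 18.1 ± 3.74 CPM per kb and Nebl at 13.2 ± 1.63 CPM per kb (SD, n = 3 each). Actn2 ranked first, Myoz2 second and Nebl last in each of the 4 groups. Actn2 did not overlap Myoz2 in 3 of the groups and did so in Des-/- non-swim, where the libraries of every neighbouring pair in the order overlapped.

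In unexercised cells, 8 of the 9 members were called lower in Des-/- than in Des+/+ (edgeR quasi-likelihood test over all 12 libraries, Benjamini-Hochberg adjusted p under 0.05), against 32% of all tested genes called, 18% lower and 14% higher. The median log2 change of the members was -1.96, beside 0.04 over all tested genes. Fewer cardiomyocytes among the cells and less of each RNA per cardiomyocyte cannot be told apart in such pooled samples, here or in any comparison that follows. All 12 cardiomyocyte markers were called lower in the same comparison, with a median log2 change of -2.13. All 10 fibroblast markers, 7 of 8 macrophage markers and 8 of 9 genes that respond to cell isolation were called higher, and so were all 5 erythrocyte markers (log2 changes 2.46 to 3.43). The part these markers played in the members' change was not tested, but the members were also measured against the cardiomyocyte list itself, as given further on.

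**Figure D1:**
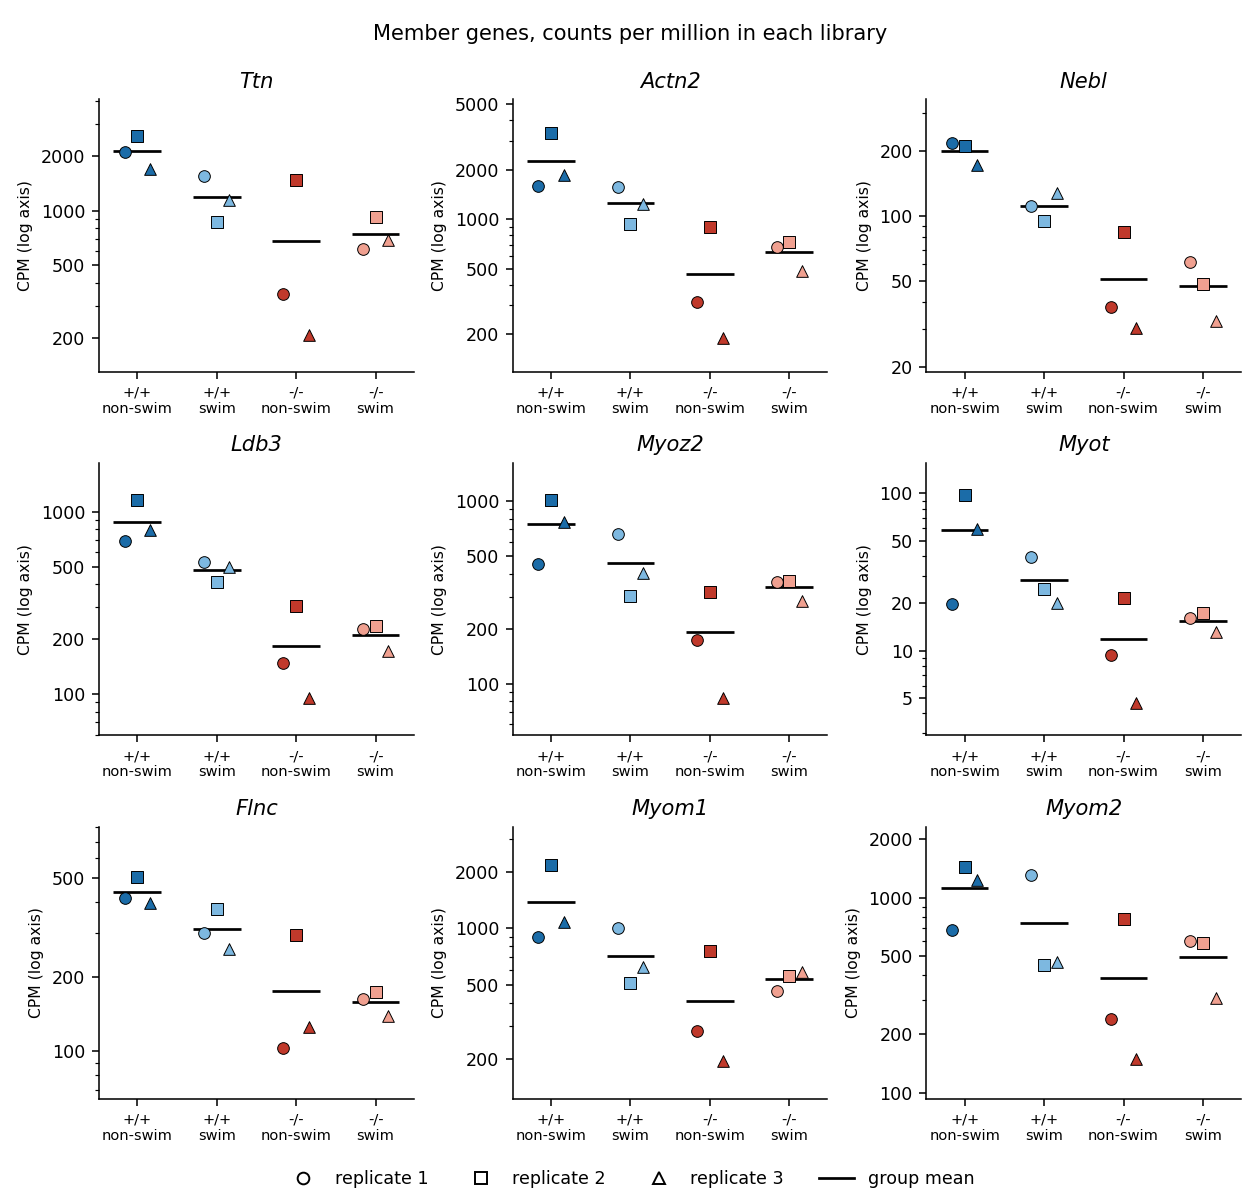
CPM of each member (TMM scaling, log axis) in the 12 libraries by group, with 1 point per library, its shape giving the replicate number, and the line giving the group mean. Des-/- non-swim replicate 2 is the highest of its group in every panel, at 1473 CPM for Ttn against 208 to 349 CPM in the other libraries of the group.

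Ttn was at 2097, 2555 and 1682 CPM in the Des+/+ non-swim libraries and at 349, 1473 and 208 CPM in the Des-/- non-swim libraries. The groups did not overlap, but replicate 2 of Des-/- lay close to the lowest Des+/+ value. The log2 change was -1.64 (SE 0.58, edgeR adjusted p = 0.0487), and this call rests on the balance of all 12 libraries. It was made in 1 of 12 fits that each left out 1 library, the one without Des-/- non-swim replicate 2, where the log2 change was -2.93 (edgeR adjusted p = 0.00042), while adjusted p in the other 11 fits was 0.054 to 0.139.

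Among the Z-disc genes, Actn2 was at 1584, 3338 and 1845 CPM in Des+/+ non-swim and at 314, 892 and 189 CPM in Des-/- non-swim. The lowest Des+/+ library was above the highest Des-/- library, and the log2 change was -2.28 (SE 0.51, edgeR adjusted p = 0.0071), or 4.85-fold lower. Ldb3, a PDZ-LIM protein that binds α-actinin, was at 693, 1156 and 792 CPM against 149, 305 and 94.9 CPM. Its groups were well apart, with a log2 change of -2.27 (SE 0.37, edgeR adjusted p = 0.0015), or 4.81-fold lower.

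Nebl encodes nebulette, the cardiac nebulin-like protein that anchors thin filaments at the Z-disc. Its 3 Des+/+ non-swim libraries were close to each other at 218, 212 and 172 CPM, and the Des-/- non-swim libraries were at 38.1, 84.5 and 30.4 CPM. The log2 change was -1.98 (SE 0.35, edgeR adjusted p = 0.0021). Myoz2 was at 452, 1010 and 770 CPM against 174, 317 and 83.3 CPM, with no overlap and a log2 change of -1.96 (SE 0.46, edgeR adjusted p = 0.0086).

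Myot encodes myotilin, which binds α-actinin and filamin, lies at chr18:44334074-44355724 on the plus strand and was the member with the fewest reads, from 53 to 834 counts per library. It was at 19.9, 97.5 and 59.0 CPM in Des+/+ non-swim and at 9.46, 21.7 and 4.64 CPM in Des-/- non-swim. Here the groups overlapped, since the first Des+/+ library was below the second Des-/- library. The log2 change was -2.31 (SE 0.59, edgeR adjusted p = 0.0126). Flnc, the muscle filamin of Z-discs and the membrane, was at 414, 504 and 395 CPM against 103, 295 and 126 CPM. Its groups did not overlap, and its log2 change of -1.33 (SE 0.33, edgeR adjusted p = 0.0115) was the smallest among the members.

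The M-band pair encode the myomesins, which crosslink titin and myosin at the centre of the sarcomere. Myom1 was at 899, 2169 and 1079 CPM in Des+/+ non-swim and at 284, 753 and 197 CPM in Des-/- non-swim. Its groups did not overlap and its log2 change was -1.75 (SE 0.49, edgeR adjusted p = 0.0188). Myom2 was at 681, 1445 and 1234 CPM against 239, 776 and 149 CPM, with Des-/- replicate 2 above the lowest Des+/+ library. Its log2 change was -1.53 (SE 0.61, edgeR adjusted p = 0.0760), and it was the member that did not pass the test.

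Without Des-/- non-swim replicate 2, 9 members were called, and without Des-/- non-swim replicate 3 there were 6, with Ttn, Myom1 and Myom2 not called. The count fell to 5 without Des+/+ non-swim replicate 2, the library with the highest cardiomyocyte sum, where Myot (adjusted p = 0.0586) and Myom1 (adjusted p = 0.0860) were also not called by edgeR. Actn2, Nebl, Ldb3, Myoz2 and Flnc were called in each of the 12 such fits. With the replicate number as a block, 9 members were called, Myom2 among them (log2 change -1.78, edgeR adjusted p = 0.0431). Between the groups, 7 of 9 members had every Des-/- library below every Des+/+ library, against 24.9% of all tested genes.

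After swimming, the genotype difference of the same genes was smaller in size. Nebl was the member that passed the test, 1 of 9, against 10.6% of tested genes called and 5.57% of tested genes called lower. The 9 log2 changes were all below 0, from -1.22 to -0.41, with a median of -0.86 beside 0.02 over all tested genes. Nebl was at 111, 94.7 and 128 CPM in Des+/+ swim and at 61.7, 48.6 and 32.6 CPM in Des-/- swim. These groups did not overlap, and the log2 change was -1.22 (SE 0.34, edgeR adjusted p = 0.0444). The call was kept in 2 of the 12 fits that left out 1 library, those without Des-/- non-swim replicate 2 or replicate 3, and adjusted p reached 0.135 in the others.

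Ldb3 was at 531, 410 and 498 CPM in Des+/+ swim and at 226, 238 and 173 CPM in Des-/- swim, again with no overlap. Its log2 change was -1.18 (SE 0.36, edgeR adjusted p = 0.0569). Flnc was at 300, 374 and 259 CPM against 162, 173 and 139 CPM, with a log2 change of -0.98 (SE 0.33, edgeR adjusted p = 0.0765). Both lay just outside the threshold, and both were called with the replicate number as a block (edgeR adjusted p = 0.0410 and 0.0411) and by DESeq2 (adjusted p = 0.0129 and 0.0317). Without Des-/- non-swim replicate 2, Ldb3 and Flnc were called as well (edgeR adjusted p = 0.0170 and 0.0113). Without Des-/- non-swim replicate 3, Ldb3 was called (edgeR adjusted p = 0.0187) and Flnc was not.

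Actn2 was at 1573, 936 and 1239 CPM in Des+/+ swim and at 675, 727 and 483 CPM in Des-/- swim, and Myot was at 39.4, 24.7 and 20.1 CPM against 16.1, 17.3 and 13.2 CPM. Neither pair of groups overlapped, but neither gene was called, with log2 changes of -0.99 (SE 0.50, edgeR adjusted p = 0.196) and -0.86 (SE 0.58, edgeR adjusted p = 0.337). Ttn, at 1543, 869 and 1143 CPM against 611, 920 and 684 CPM, overlapped between the genotypes. Its log2 change was -0.68 (SE 0.57, edgeR adjusted p = 0.439). Myoz2, Myom1 and Myom2 overlapped as well, with log2 changes of -0.44, -0.41 and -0.57. In all, 5 of 9 members had every Des-/- swim library below every Des+/+ swim library, against 18.6% of tested genes. In this comparison 1 of 12 cardiomyocyte markers, 1 of 10 fibroblast markers and 6 of 9 isolation-response genes were called. The share of reads in no gene was 45.9% to 50.4% in Des+/+ swim and 57.2% to 64.5% in Des-/- swim, without overlap, whereas without swimming it was 34.0% to 39.3% in Des+/+ and 34.2% to 52.3% in Des-/-. The part that these measures played was not tested.

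**Figure D2:**
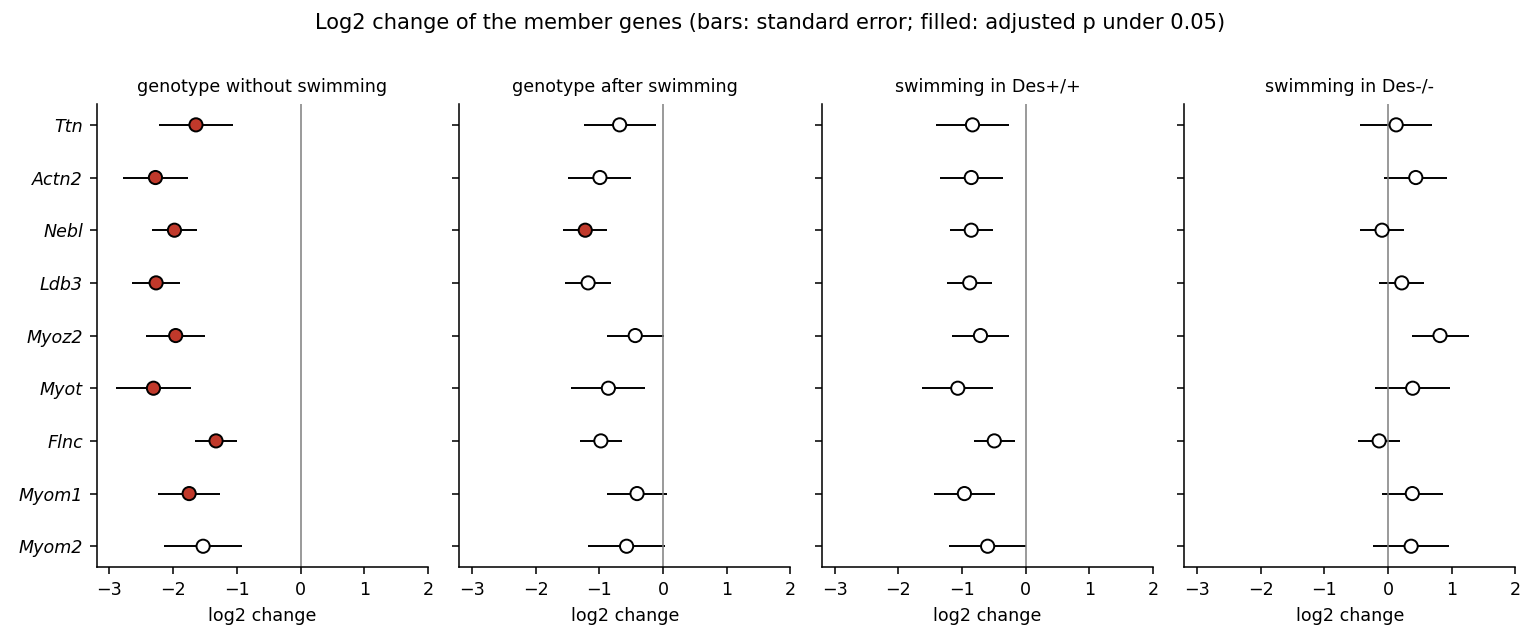
Log2 change of each member (x axis) in the comparisons of genotype without and after swimming and of swimming in Des+/+ and in Des-/-, with bars for the standard error and filled points for adjusted p under 0.05 in edgeR. Without swimming 8 points are filled and lie between -2.31 and -1.33, after swimming the filled point is Nebl at -1.22, and no point is filled in the swimming comparisons.

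In Des+/+ cardiomyocytes, swimming went with lower values of each member, but none was called. The log2 changes ran from -1.06 (Myot, SE 0.56) to -0.49 (Flnc, SE 0.33), with a median of -0.85 beside -0.08 over all tested genes. In this comparison 0.0912% of all tested genes were called, none of them lower. At an unadjusted p under 0.05, which 20.5% of tested genes reached, there were 2 members, Nebl with a log2 change of -0.85 (SE 0.34, edgeR adjusted p = 0.191) and Ldb3 with -0.88 (SE 0.36, edgeR adjusted p = 0.202), and DESeq2 called no member. The 3 Nebl libraries of Des+/+ swim, at 94.7 to 128 CPM, were all below the 172 CPM of the lowest non-swim library. Ttn, Actn2, Ldb3 and Flnc did not overlap either, which gave 5 of 9 members with no overlap against 18.7% of tested genes. Both the cardiomyocyte marker sum and the members were lower after swimming, and of those 12 markers none was called. The 5 erythrocyte markers had log2 changes of 1.69 to 2.80 in this comparison, with none called, and summed to 179 to 546 CPM before and 1390 to 2175 CPM after swimming. The share of reads that fell in no gene was 34.0% to 39.3% in Des+/+ non-swim and 45.9% to 50.4% in Des+/+ swim, and the part that these measures played was not tested.

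In Des-/- cardiomyocytes, swimming left the members without a common direction, and none was called, beside 0.0228% of all tested genes. The log2 changes ran from -0.14 (Flnc, SE 0.33) to 0.81 (Myoz2, SE 0.45), and 7 of 9 were above 0. No member was at an unadjusted p under 0.05, against 16.7% of tested genes, and DESeq2 called no member. All 9 overlapped between Des-/- non-swim and Des-/- swim, where 9% of tested genes had every swim library lower, and for 8 of them the swim libraries fell inside the wide span of the non-swim group. The exception was Myoz2, at 359, 367 and 283 CPM after swimming against 174, 317 and 83.3 CPM before, with an edgeR adjusted p of 0.370.

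The test of whether swimming acted differently in the genotypes called no member and 0% of tested genes in edgeR, while DESeq2 called 318 genes, with no member among them. The interaction log2 changes, swimming in Des-/- minus swimming in Des+/+, ran from 0.35 (Flnc, SE 0.46) to 1.52 (Myoz2, SE 0.63). At an unadjusted p under 0.05 there was 1 member, Myoz2 (edgeR adjusted p = 0.269), beside 16.3% of all tested genes. A genotype difference that was called without swimming and not after it is therefore not shown to depend on swimming. The genotype comparison without swimming and both swimming comparisons share libraries, so that the values of a member in them are not independent.

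The members moved together from library to library. Across the 36 pairs of members, Pearson's r of log2 CPM over the 12 libraries was 0.77 to 0.98 with a median of 0.92, while the median over all pairs of tested genes was -0.004. Pairs of other cardiomyocyte genes were not taken as a baseline, so this is not shown to be particular to the members. The libraries share their cell preparations and their group differences, and after group means were removed the members' r was 0.50 to 0.99 with a median of 0.84. Before that removal the closest pair was Actn2 and Ldb3, and the least close was Myoz2 and Flnc. Ttn was most like Rbm20, the titin splicing factor, with r = 0.986 over 12 libraries, followed by the desmosome gene Dsp (0.976) and by Nlrp10 (0.967). Actn2 was most like Pde4dip, Nrap and Sptb, with r of 0.993 to 0.995, and Ldb3 like Asb2 (0.996) and the mitochondrial enzyme Got2 (0.995). Nebl was most like Stard7, Prkaa2 and Ndufs1 (each 0.993) and Myoz2 like Myh14, Dhrs7c and the cardiac troponin gene Tnnt2 (0.985 to 0.993). Myot was most like Adprhl1, Kcnj11 and Klhl40 (0.962 to 0.966), and Flnc like Kcnj12, Rhot1 and Slco5a1 (0.952 to 0.954). Of the M-band genes, Myom1 was most like Tnik, Atp8a2 and Tmem201 (each 0.972), and Myom2 like Kcnj11, Ivns1abp and the myosin binding protein gene Mybpc3 (0.956 to 0.964). Flnc and Myom2 had the lowest of these best matches.

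The members were then set against the cardiomyocyte markers. When library sizes were scaled so that the mean log2 level of the 12 markers was equal in all libraries, the spread of a member's log2 level over the 12 libraries fell from an SD of 0.76 to 1.16 down to 0.21 to 0.52. The highest Actn2 library was 17.7 times the lowest in CPM and 1.89 times the lowest on the marker scale. For Ldb3 the same ratio went from 12.2 to 1.54, and for Ttn from 12.3 to 2.54. On this scale Ldb3 was at 358, 416 and 359 in Des+/+ non-swim and at 302, 372 and 412 in Des-/- non-swim (marker-scaled CPM), with the libraries of both genotypes interleaved.

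Relative to the markers, the log2 genotype change without swimming was between -0.17 (Actn2, SE 0.36) and 0.95 (Flnc, SE 0.44), with a median of 0.22. This scale takes the markers' own change from every gene, so a gene that fell about as much as the markers comes near 0. Genes that did not fall come out higher, and the median of all tested genes moved to 2.54, with 92.7% called. That 1 of 9 members was called follows from their fall beside the markers, and does not set them apart from other cardiomyocyte genes. The called member was Flnc (edgeR adjusted p = 0.0454), at 214, 181 and 179 marker-scaled CPM in Des+/+ non-swim against 208, 361 and 545 in Des-/- non-swim. The highest value belonged to Des-/- non-swim replicate 3, the library with the highest fibroblast sum. Without it the log2 change of Flnc was 0.57 (edgeR adjusted p = 0.150), and the call was made in 3 of the 12 fits that left out 1 library. Actn2, Ldb3 and Myot stayed below 0 on this scale and the other 6 members were above 0.

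After swimming, the changes against the markers ran from -0.41 (Nebl, SE 0.39) to 0.54 (Myom1, SE 0.40), and none was called (smallest edgeR adjusted p = 0.298), against 1.34% of tested genes. No member was called for swimming in either genotype or for the interaction on this scale. The summed level of the 9 members was 8.57% to 10.2% of the summed cardiomyocyte markers in Des+/+ non-swim, 8.20% to 10.7% in Des+/+ swim, 8.63% to 13.8% in Des-/- non-swim and 9.32% to 12.6% in Des-/- swim. These ranges overlapped in every pair of groups.

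**Figure D3:**
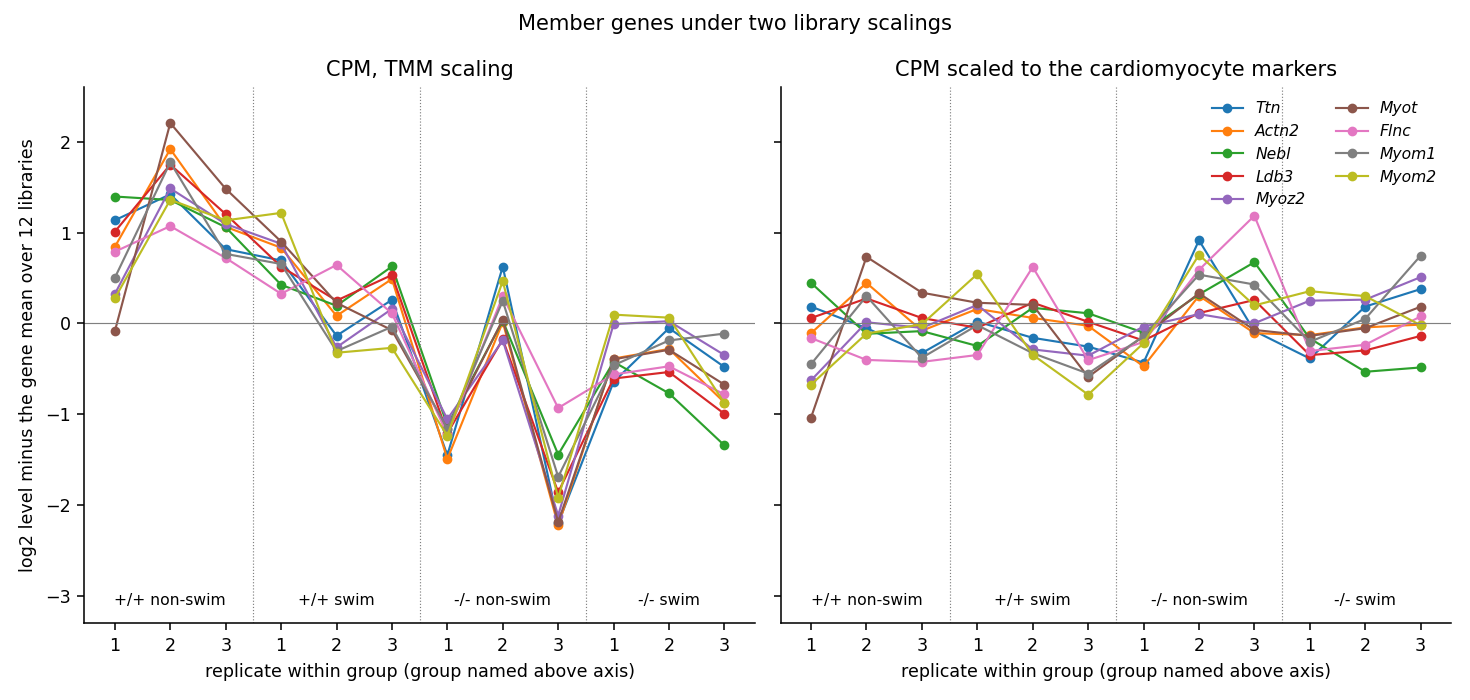
Log2 level of each member in each library minus the mean of that gene over the 12 libraries, with CPM under TMM scaling at left and CPM scaled to 12 cardiomyocyte markers at right, libraries ordered by group and replicate along the x axis. The 9 lines rise and fall together at left, with SDs of 0.76 to 1.16, and stay near 0 at right, with SDs of 0.21 to 0.52.

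Several members belong to families whose other genes are used by non-muscle cells, which made a comparison within families possible. Of 15 tested relatives (17 listed, with Myoz1 and Myoz3 below the filter), 6 were called lower and 3 higher in Des-/- non-swim. Over all tested genes 18% were called lower and 14% higher, so the number of higher calls was near the general share. The lower ones were led by the muscle genes Mypn (log2 change -2.38, SE 0.46), Nrap (-2.29, SE 0.54) and Neb (-2.15, SE 0.32, at 15.5 to 20.6 CPM in Des+/+ non-swim), with edgeR adjusted p of 0.0033, 0.0090 and 0.0011. The rest of the lower calls were Myom3 (-1.50), Pdlim5 (-1.21) and Palld (-1.08). Levels of Myom3 were low, at 2.62 to 4.09 CPM in Des+/+ non-swim and 0.70 to 1.36 CPM in Des-/- non-swim. The higher ones were the broadly expressed genes Actn1 (0.71, SE 0.21), Flna (0.74, SE 0.23) and Lasp1 (0.49, SE 0.16), with edgeR adjusted p of 0.0249, 0.0290 and 0.0343. In this comparison Actn1, Flna and Lasp1 were higher under each of the scalings tried, whereas Neb turned to 0.22 on the marker scale. That scale moved the median of all tested genes to 2.54. A sign on it gives a gene's change relative to that of the markers, so a gene that did not fall comes out higher there. None of these 3 higher calls was made without Des-/- non-swim replicate 3, where the log2 changes were 0.42, 0.48 and 0.39 (edgeR adjusted p = 0.0968, 0.109 and 0.130), or without any 1 of the Des+/+ non-swim libraries. Lasp1 was also not called without Des-/- non-swim replicate 1, and the number of relatives called lower was 5 or 6 in the 12 fits. Mypn, Nrap and Neb were called in all 12.

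Actn2 made up 80.3%, 90.2% and 83.7% of the summed per-kilobase level of the 4 actinin genes in the Des+/+ non-swim libraries, and 38.9%, 66.0% and 24.3% in the Des-/- non-swim libraries. Actn4, a non-muscle actinin, was at 69.6 to 78.8 CPM per kb in the first group and 88.3 to 102 CPM per kb in the second, and was above Actn2 in Des-/- non-swim replicates 1 and 3. After swimming, the Actn2 share was 63.4% to 76.5% in Des+/+ and 46.1% to 57.8% in Des-/-. Flnc made up 28.8% to 36.6% of the 3 filamin genes in Des+/+ non-swim and 6.59% to 19.0% in Des-/- non-swim. Flna was the most abundant filamin per kilobase in all 4 group means, at 68.3 ± 3.57 CPM per kb in Des+/+ non-swim and 114 ± 33.2 CPM per kb in Des-/- non-swim (SD, n = 3 each). In the latter group replicate 3 was at 152 CPM per kb, and the other libraries were at 99.4 and 91.0 CPM per kb, with a mean of 95.2. Actn1 was likewise highest in that replicate, at 52.7 CPM per kb against 31.3 and 31.9. The fibroblast and macrophage markers were higher in the same libraries, and their part in these shares was not tested. In contrast, Myom1 and Myom2, which are both muscle genes, stayed close to equal per kilobase, with Myom1 at 39.2% to 61.7% of the 3 myomesin genes over all 12 libraries.

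**Figure D4:**
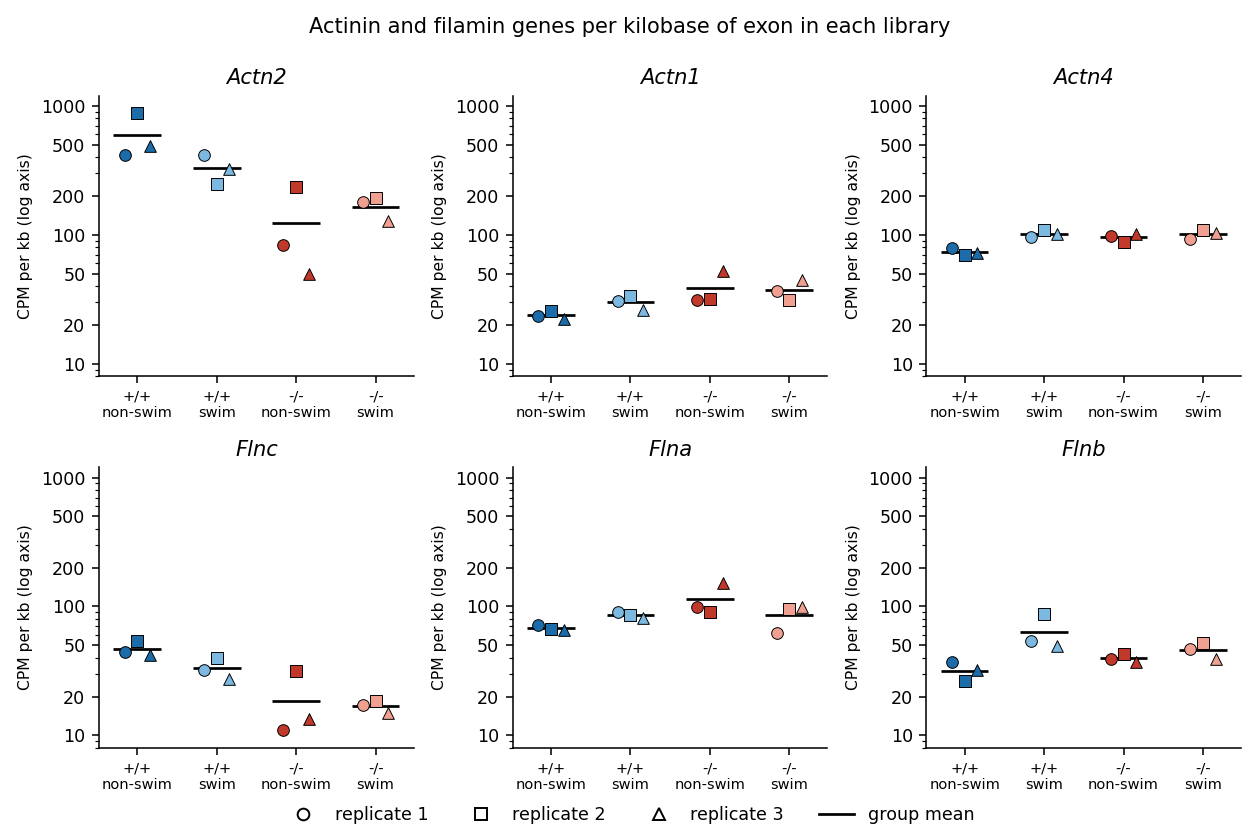
CPM per kilobase of exon (log axis, the same range in every panel) of 3 actinin genes and 3 filamin genes in the 12 libraries, with points for libraries and lines for group means. The mean of Actn2 falls from 594 in Des+/+ non-swim to 123 in Des-/- non-swim while that of Actn1 is 23.7 and 38.6, or 31.6 in the latter group without replicate 3.

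The genes that work with the members were followed in lists of known partners. Of 17 tested Z-disc partner genes, 12 were called lower and none higher in Des-/- non-swim (median log2 change -1.21), beside 32% of all tested genes called and 18% called lower. This count was 9 to 13 with 1 library left out, 9 being the count without Des+/+ non-swim replicate 2 and 13 that without Des-/- non-swim replicate 3. They were led by Mypn (myopalladin), the formin Fhod3 (log2 change -2.38, SE 0.54, edgeR adjusted p = 0.0076) and Nrap. Cryab, the small heat shock protein that binds desmin, and Bag3, its co-chaperone partner at the Z-disc, were lower too, with log2 changes of -1.89 and -1.06. The 5 that were not called were Pdlim3 (-0.23), Synpo2l (-0.60), Pdlim1 (0.21), Capzb (-0.17) and Capza2 (-0.38). The products of Capzb and Capza2 cap actin filaments in many cell types. After swimming 2 of the 17 were called, near the 10.6% of all tested genes that were called in this comparison. Both were lower, Pdlim5 (-1.11, SE 0.23, edgeR adjusted p = 0.0176) and Bag3 (-0.90, SE 0.18, edgeR adjusted p = 0.0156). The count was 5 without Des-/- non-swim replicate 2 or 3, 1 without Des-/- swim replicate 1 or 2 and 0 without Des+/+ swim replicate 3.

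Of 15 M-band and titin-associated genes, 12 were called lower and none higher in Des-/- non-swim (median log2 change -1.93), beside the same 18% over all tested genes. The count was 8 without Des+/+ non-swim replicate 2 and 9 to 12 with any other library left out. Trim63, the M-band ubiquitin ligase also known as MuRF1, had the largest change at -2.89 (SE 0.40, edgeR adjusted p = 0.00092). It was at 180 to 264 CPM in Des+/+ non-swim and 15.0 to 46.4 CPM in Des-/- non-swim. Capn3, a protease that binds titin, followed at -2.78 (SE 0.57, adjusted p = 0.0044) and Smyd1, a myosin-associated methyltransferase, at -2.53 (SE 0.49, adjusted p = 0.0035) in edgeR. Levels of Capn3 were low, at 8.84 to 13.8 CPM in Des+/+ non-swim and 0.52 to 3.40 CPM in Des-/- non-swim. The 3 not called were Ankrd1, Nbr1 and Sqstm1, whose log2 changes were -0.55, -0.43 and -0.50. After swimming, Trim63 (-1.93, SE 0.39, edgeR adjusted p = 0.0162) and Trim55 (-1.76, SE 0.48, edgeR adjusted p = 0.0414) were called, 2 of 15 beside 10.6% over all tested genes. Trim63 was called in 11 of 12 fits with 1 library left out, the exception being Des+/+ swim replicate 3 (edgeR adjusted p = 0.0655), and Trim55 in 4. On the marker scale Trim63 was at -0.68 without swimming and -0.98 after it, and was not called in either (edgeR adjusted p = 0.109 and 0.113).

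Of 10 regulators of titin splicing and muscle transcription, 6 were called lower and 1 higher in Des-/- non-swim, beside 18% and 14% of all tested genes. The number called lower was 3 without Des+/+ non-swim replicate 2, 4 without Des-/- non-swim replicate 1 or 3 and 5 or 6 otherwise. The splicing factors Rbm24 (-2.34, SE 0.37, edgeR adjusted p = 0.0013) and Rbm20 (-2.33, SE 0.64, edgeR adjusted p = 0.0178) and the serum response factor cofactor Myocd (-2.05, SE 0.44, edgeR adjusted p = 0.0055) had the largest changes. Rbm20 was not called without Des+/+ non-swim replicate 2 or Des-/- non-swim replicate 1 (adjusted p up to 0.0604 in edgeR). Ptbp1, a splicing repressor of many tissues, was higher by a log2 change of 0.81 (SE 0.19, edgeR adjusted p = 0.0085). Srf and Mef2a were lower in both genotype comparisons, and a link to the motifs shown above was not tested. For Srf the log2 change was -0.70 (SE 0.14) without swimming and -0.65 (SE 0.14) after it, and for Mef2a -0.60 (SE 0.19) and -0.66 (SE 0.19), with edgeR adjusted p of 0.0039, 0.0198, 0.0331 and 0.0481 in that order. Mef2c, also in the list, had higher means in Des-/-, at 138 against 127.5 CPM without swimming and 152 against 117 CPM after it. It was not called in either comparison. The means of Mef2d were lower in Des-/-, at 158 against 240 CPM and 171 against 230 CPM. Rbm24 was the other gene called after swimming (-1.31, SE 0.36, edgeR adjusted p = 0.0420), which made 3 of 10 beside 10.6% over all tested genes. With 1 library left out, the swum call was made in 9 of 12 fits for Srf and in 2 of 12 each for Mef2a and Rbm24. The count was 5 without Des-/- non-swim replicate 3, 3 without replicate 2, 1 or 0 otherwise, and 0 without Des+/+ swim replicate 3 or Des-/- swim replicate 1. Without swimming, the call of Mef2a was made in 7 of 12 such fits, and not without Des-/- non-swim replicate 3 (log2 change -0.58, edgeR adjusted p = 0.0760). No gene of these 4 lists was called in either swimming comparison.

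**Figure D5:**
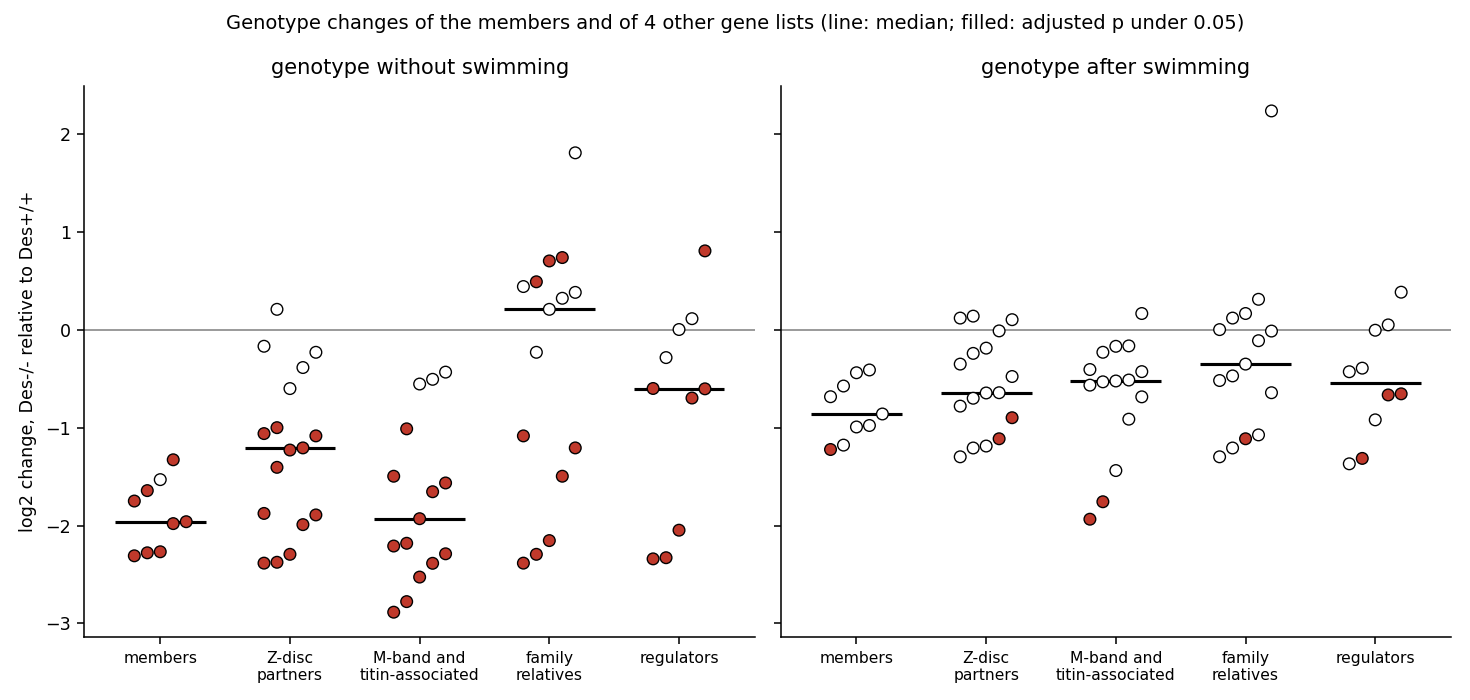
Log2 change of Des-/- relative to Des+/+ for the members and for 4 lists of other genes, without swimming at left and after swimming at right, with 1 point per tested gene, filled where edgeR adjusted p was under 0.05, and the line at the list's median. The medians at left are -1.96, -1.21, -1.93, 0.21 and -0.60 from members to regulators.

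Because Ttn and Nebl are long, the genotype changes of other long genes were also taken. The 355 other tested genes with at least 15000 bases of exon had a median log2 change of 0.05 without swimming and -0.11 after it. Of the skeletal muscle markers, the fast myosin genes Myh1, Myh2 and Myh4 had at most 8, 6 and 1 counts in any library. Neb had 18 to 195 counts, and the 10 markers together summed to 9.80 to 25.8 CPM.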

How the data were processed

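RNA-seq counts per gene were deposited by the authors as 1 table per library, 12 in all, after alignment of single-end reads of 100 bases to GRCm38 with HISAT2 2.2.1 and counting with HTSeq in reverse-strand mode, with SAMtools 1.13, as the study's methods and processing notes give it. The labels name a TruSeq kit that does not mark strand, whereas the methods name a directional kit. Of the reads assigned or unassignable to a gene, 34.0% to 64.5% fell in no gene and were left out with the other summary rows.

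Groups came from the labels. Genes that passed filterByExpr (13158 of 21493) were tested with the edgeR 4.0.16 quasi-likelihood test (R 4.3.3) on all 12 libraries with TMM sizes, and p-values were adjusted over all tested genes by Benjamini-Hochberg, with calls at 0.05. The p-values measure the spread between these pooled libraries. Exon lengths came from GENCODE M21, with 21488 genes matched, and promoter windows from RefSeq. Tables and figures were made with Python 3.11.15, pandas 2.3.3, numpy 2.4.6 and matplotlib 3.10.9, and the fits were tested on simulated data.

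The members and the gene lists were chosen with earlier results of these data known. Named were all members, the 3 genes closest to each by correlation (1 of them is not reported here), and in each list the 3 called genes with the largest change in each genotype comparison. Cryab, Bag3 without swimming, Capzb, Capza2, Ankrd1, Nbr1, Sqstm1, Ptbp1, Srf and Mef2a without swimming, Actn1, Actn4, Flna and Lasp1 were chosen after their values were seen. The same holds for Pdlim1, Pdlim3, Synpo2l, Mef2c, Mef2d, Myom3, Palld and, without swimming, Pdlim5. Alternatives were other size factors (RLE, upper quartile, 12 cardiomyocyte markers), no filter, DESeq2 1.42.0, the 6 libraries compared alone, a replicate block, the study's filter (log2 change of at least 0.6, p of at most 0.05 and mean count of at least 20) and each library left out in turn. The block and left-out libraries on the marker scale, and left-out libraries for the lists of other genes, were added after the data were seen. No 2 replicates agreed within sampling noise (chi-square per degree of freedom 9.5 or more). The main tests did not pair libraries by replicate number. Deviations of libraries with the same number correlated at 0.316 to 0.602 in the swimming comparison in Des-/-, and at or below 0.1 for at least 1 pair in each other comparison. Within Des-/-, replicates 1 and 2 correlated across the swimming groups at 0.299 and 0.292 too, close to the lower same-number values. Only replicate 3 stood apart, so these correlations do not settle whether the numbers are pairs.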

Additional observations from a re-analysis of the deposited data

How the results depend on the processing

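All 45 member changes (9 members in 4 comparisons and the interaction) kept direction and side of the threshold with RLE size factors and without the low-count filter, 43 did so with DESeq2 and with upper-quartile sizes, 42 with the replicate block and 28 of 36 with the 6 libraries compared alone. In the genotype comparison without swimming, members called went from 8 to 4 with the 6 libraries alone and to 1 on the marker scale. After swimming, where 1 was called, there were 0 with upper-quartile sizes and on the marker scale, 3 with DESeq2, with the replicate block and with the study's filter, and 4 with the 6 libraries alone. For swimming in Des+/+ there was 1 (Nebl, adjusted p = 0.0461) with the 6 libraries alone and 2 with the study's unadjusted filter. With the replicate block and the marker scale together there were 0, since Flnc had an adjusted p of 0.0732. In the swimming comparison in Des-/-, the block changed no member's call. The block moved the calls of Myom2 without swimming and of Ldb3 and Flnc after it, and the cause of these and the other moved counts was not tested.

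On the marker scale 25 of the 45 changes turned sign, since a change there is read relative to that of the markers. Without swimming the log2 changes became 0.30 for Ttn, 0.22 for Nebl, 0.22 for Myoz2, 0.95 for Flnc, 0.44 for Myom1 and 0.54 for Myom2. After swimming they became 0.22 for Ttn, 0.47 for Myoz2, 0.0091 for Myot, 0.54 for Myom1 and 0.31 for Myom2. For swimming in Des+/+ they became 0.070 for Myoz2, 0.36 for Flnc and 0.15 for Myom2, and in Des-/- they became -0.16 for Ttn, -0.0041 for Actn2, -0.33 for Ldb3, -0.055 for Myot, -0.048 for Myom1 and -0.080 for Myom2. The interaction became -0.080 for Ttn, -0.63 for Nebl, -0.27 for Ldb3, -1.14 for Flnc and -0.23 for Myom2.

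Leaving out 1 library at a time gave 5 to 9 members called without swimming, 0 to 3 after it (3 without Des-/- non-swim replicate 2, 2 without replicate 3) and 0 to 1 on the marker scale without swimming. The sign of uncalled changes depended on a single library for swimming in Des-/-, where ranges were -0.29 to 1.41 for Ttn, -0.35 to 0.48 for Nebl, -0.084 to 0.80 for Ldb3, -0.41 to 0.47 for Flnc and -0.0090 to 1.36 for Myom2, and for Myom2 after swimming (-0.83 to 0.12). Myot, with 53 to 834 reads per library, is the member whose precision depth limits most, and the Des-/- swim libraries were the shallowest. A library left out leaves its group with 2, whose spread is estimated together with the other groups.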
